A study of Rattus norvegicus with 6 samples.

Results

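A set of 9 transcription factors that set or advance the oligodendrocyte lineage, Olig1, Olig2, Nkx2-2, Nkx6-2, Myrf, Tcf7l2, Myt1, Tcf4 and Zeb2, was examined in cultured rat precursor cells of oligodendrocytes (OPCs), which divide and then mature into myelin-forming cells. They were chosen by gene name as known regulators outside the SOX family, with earlier results of these data known. All 9 were found among the 32883 genes of the count table, which assigns a transcription factor family to 1403 genes. The OPCs came from the cerebral cortex of newborn Sprague Dawley rats, were freed from a mixed culture by shaking, and received either 5 µM ZJU-37, an inhibitor of the kinase RIPK1, or an equal volume of its solvent DMSO. The treatment lasted 36 h per the labels, whereas the methods of the study state a shorter time. There were 3 libraries of poly-A RNA in each group. The labels name no other difference between them and no transgene or knockout. The libraries are called biological repeats in one place and wells of a plate in another, so the p-values below measure the spread between these libraries, which may be technical.

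Library totals ran from 13935865 to 24097927 counts, and values are given as CPM, counts divided by a library total corrected for composition by TMM. On this scale 3 counts lay between 0.124 and 0.219 CPM, which is a limit from counting error alone. All 9 factors passed the filter on low counts, together with 14670 genes in all and 955 genes of a transcription factor family. The label of the cells was checked against marker genes. OPC genes summed to between 2209 and 2640 CPM in the DMSO libraries, and 8 microglia markers summed to between 1627 and 2780 CPM in the same libraries. Genes of later stages summed to more, with 5327 to 7186 CPM for committed precursor genes and 11347 to 22886 CPM for myelin genes. The cultures thus held RNA of other cell types and of maturing oligodendrocytes. These sums are not divided by gene length and cover lists of different size. In bulk libraries such as these, fewer cells of a type and less RNA per cell cannot be told apart.

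As background, Olig1 and Olig2 are basic helix-loop-helix proteins of the whole lineage, and Olig2 is needed for OPCs to form. Nkx2-2 and Nkx6-2 are homeobox proteins of the ventral neural tube that are also expressed as oligodendrocytes mature. Myrf switches on myelin genes in differentiating cells, Tcf7l2 is a TCF/LEF factor found in newly forming oligodendrocytes, and Zeb2, which binds E-boxes, favours differentiation by limiting BMP signals. Myt1 is a zinc finger protein of progenitors, and Tcf4 is an E protein that pairs with OLIG proteins. The gene Tcf4 is not the WNT factor often called TCF4 in the literature, which is Tcf7l2.

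The factors did not move together. With ZJU-37, Tcf7l2, Nkx2-2 and Myrf fell to between 24.2% and 31.0% of their DMSO level, and Zeb2 fell less. Olig1 and Myt1 rose 1.56-fold and 1.52-fold. Olig2, Tcf4 and Nkx6-2 did not pass the main test, which does not pair libraries by replicate number. With the replicate number entered as a block Nkx6-2 passed (adjusted p = 5.67e-04 in edgeR), and Olig2 and Tcf4 did not. In the quasi-likelihood test of edgeR, with p-values adjusted over all tested genes by the method of Benjamini and Hochberg, 6 of the 9 factors had an adjusted p under 0.05, of which 2 were higher and 4 lower. The same rule called 15.0% of all tested genes (9.43% higher and 5.58% lower) and 14.0% of the tested genes with a transcription factor family (9.53% higher and 4.50% lower). The median log2 fold change of the 9 factors was -0.72, against -0.03 over all tested genes, and the median size of the change without its sign was 0.72 against 0.19. The groups did not overlap for 7 of the 9 factors, 2 higher and 5 lower, as was the case for 35.2% of all tested genes (19.0% higher and 16.2% lower). Since the factors were chosen with earlier results of these data known, these comparisons with all genes are a description and not a test of the set.

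The sequences before the annotated start sites of the 2 factors that fell the most and of a factor that rose are shown because these genes moved in opposite directions. They cover 250 bases before the start in the RefSeq annotation of assembly GRCr8, 5′ to 3′ on the strand of the gene. Capitals mark the matches of 4 short motifs searched on both strands. The regions were chr1:264791085-264791334 (plus strand) for Tcf7l2, chr3:155075623-155075872 (minus strand) for Nkx2-2 and chr3:189296804-189297053 (plus strand) for Myt1.
Tcf7l2: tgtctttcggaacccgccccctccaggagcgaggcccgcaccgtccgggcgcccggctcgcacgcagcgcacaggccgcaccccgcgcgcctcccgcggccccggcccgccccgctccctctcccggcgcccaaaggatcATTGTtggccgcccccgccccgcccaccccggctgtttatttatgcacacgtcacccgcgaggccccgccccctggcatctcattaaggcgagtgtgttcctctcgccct
Nkx2-2: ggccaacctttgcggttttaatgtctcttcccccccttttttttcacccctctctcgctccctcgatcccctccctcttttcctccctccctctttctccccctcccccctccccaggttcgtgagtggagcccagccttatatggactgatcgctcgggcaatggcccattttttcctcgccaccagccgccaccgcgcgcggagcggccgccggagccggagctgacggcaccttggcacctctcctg
Myt1: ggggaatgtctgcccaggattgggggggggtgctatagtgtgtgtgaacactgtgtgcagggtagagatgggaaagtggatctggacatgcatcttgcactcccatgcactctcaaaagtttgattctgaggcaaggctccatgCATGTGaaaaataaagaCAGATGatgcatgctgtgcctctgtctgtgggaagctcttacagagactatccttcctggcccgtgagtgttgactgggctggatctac

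The 3 upstream regions differed in base composition, with 73.6% G and C for Tcf7l2, 63.2% for Nkx2-2 and 51.2% for Myt1. The motifs were the E-box CANNTG of helix-loop-helix proteins, the E-box CACCTG of ZEB proteins (which is also a CANNTG), the TCF/LEF core CTTTGAT and the SOX core ACAAT. They were searched from 250 bases before to 50 bases after the start, a window that RefSeq gave for 7 of the 9 factors and not for Olig1 and Myrf. Tcf7l2 held a SOX core on the reverse strand, 110 bases before the start, Nkx2-2 held no match, and Myt1 held E-boxes 106 and 89 bases before the start. Among the 7 windows, 3 held an E-box, 1 a ZEB E-box, 0 a TCF/LEF core and 3 a SOX core. Over 27457 rat promoters of the same length the shares were 71.6%, 18.7%, 3.62% and 33.1%. A match describes these letters only and is not evidence of binding.

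Per kilobase of gene model, the scale on which levels of the factors are compared with each other here, Olig1 had the highest level of the 9 factors in both groups. In DMSO it stood at 375 ± 27.3 CPM per kb (SD, n = 3 libraries), the level of rank 2 among the 955 genes of a transcription factor family when averaged over all libraries. Olig2 followed at 189 ± 15.3 CPM per kb, and then Nkx2-2 at 139 ± 5.55 and Myrf at 137 ± 23.0, which did not differ beyond their spread. Zeb2 came next at 60.3 ± 6.39 CPM per kb. Tcf7l2 and Tcf4 lay within their spread of each other at 26.5 ± 4.50 and 26.3 ± 1.74, as did Myt1 and Nkx6-2 at 21.7 ± 1.19 and 19.8 ± 7.37.

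In ZJU-37 libraries Olig1 and Olig2 kept the top of this order, Myt1 moved ahead of Tcf4, and Tcf7l2 fell behind Tcf4. Olig1 stood at 583 ± 87.4 and Olig2 at 180.0 ± 25.0 CPM per kb. Myrf, Nkx2-2, Zeb2 and Myt1 followed at 42.6 ± 9.32, 41.8 ± 6.22, 36.7 ± 3.03 and 33.0 ± 5.04, and neighbours among them did not differ beyond their spread. Tcf4 was at 26.1 ± 2.01, ahead of Nkx6-2 at 9.44 ± 3.67 and Tcf7l2 at 6.40 ± 0.594. The sum of the 9 levels was 995 ± 90.1 CPM per kb in DMSO and 959 ± 121 in ZJU-37, and Olig1 made up 37.7% ± 0.896 of it in DMSO and 60.7% ± 2.31 with ZJU-37. The share of Olig2 was 19.0% ± 0.279 and 18.8% ± 0.248.

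**Figure D1:**
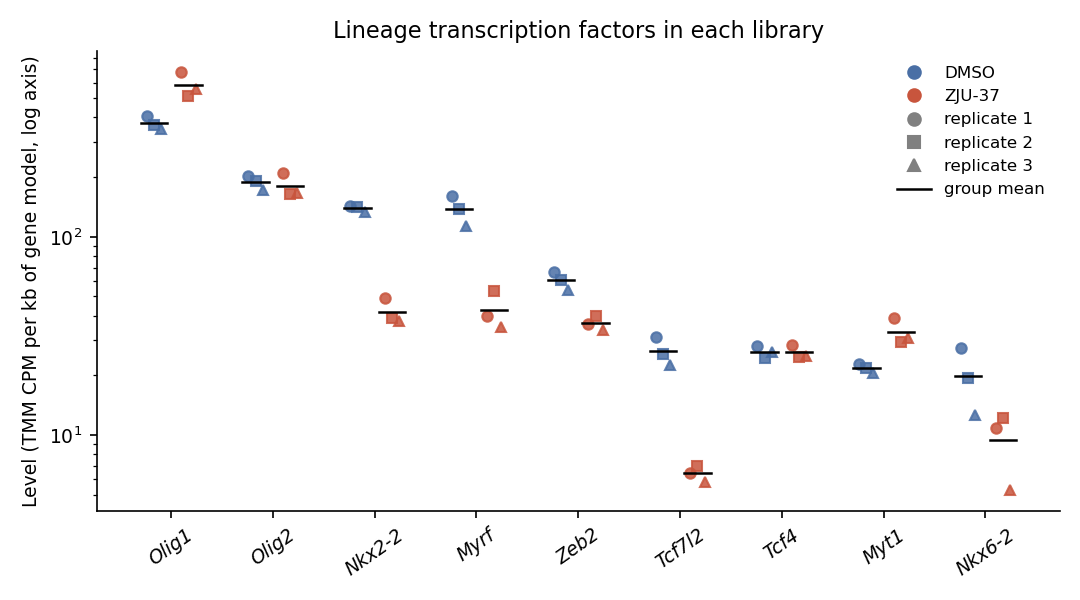
Level of each factor in every library, as TMM-scaled CPM per kb of gene model on a log axis, with DMSO in blue, ZJU-37 in red, replicate numbers as symbols and group means as bars. The groups are apart for Tcf7l2, Nkx2-2 and Myrf, whereas those of Olig2 and Tcf4 overlap.

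The OLIG genes are neighbours but differed in their response. Olig2 (chromosome 11, 31389514 to 31392890, plus strand) and Olig1 (31428358 to 31430517, plus strand) lie 35468 bases apart in the coordinates of the authors' table, whose genome build is not named, with 0 counted genes between them. Olig1 measured 874, 795 and 758 CPM in the DMSO libraries, given throughout in the order of replicates 1, 2 and 3, and 1470, 1106 and 1201 CPM in the ZJU-37 libraries. The groups did not overlap (exact permutation test over libraries, two-sided, p = 0.1, which is the lower limit for 3 against 3). The mean rose from 809 ± 59.0 to 1259 ± 189 CPM (SD, n = 3 each), a log2 fold change of 0.64 with a standard error of 0.12 (95% interval 0.35 to 0.93, adjusted p = 0.0150 in edgeR). Without DMSO replicate 2 or DMSO replicate 3 the adjusted p of Olig1 was 0.0619 or 0.0614 in edgeR, with log2 fold changes of 0.63 and 0.59. These fits did not pair libraries by replicate number. With all libraries and the replicate number entered as a block, the adjusted p of Olig1 was 4.8e-05 in edgeR.

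Olig2 measured 539, 507 and 459 CPM in the DMSO libraries and 554, 438 and 440 CPM in the ZJU-37 libraries. The highest and the lowest values both belonged to ZJU-37, so the groups overlapped (p = 0.6, same exact test). The log2 fold change was -0.07 with a standard error of 0.12 (95% interval -0.35 to 0.20, adjusted p = 0.737 in edgeR), an interval that does not reach the estimate for Olig1. Within each library, the ratio of Olig1 to Olig2 per kb was 1.99, 1.93 and 2.03 in DMSO and 3.26, 3.10 and 3.35 in ZJU-37. The difference of the mean log2 ratios was 0.71 (exact permutation p = 0.1, the smallest possible). A ratio within a library is not affected by how the library total is scaled. Olig3, the other OLIG gene, had 0 counts in all 6 libraries.

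The homeobox gene Nkx2-2 (chromosome 3, 141408798 to 141411170, minus strand) fell. It measured 198, 198 and 185 CPM in the DMSO libraries and 68.1, 54.0 and 52.4 CPM in the ZJU-37 libraries. The lowest DMSO library stood far above the highest ZJU-37 library, and the values within a group were close. The mean fell from 194 ± 7.73 to 58.2 ± 8.66 CPM, a log2 fold change of -1.74 with a standard error of 0.11 (adjusted p = 3.2e-04 in edgeR), which leaves 30.0% of the DMSO level (95% interval 25.0% to 36.0%). Of the 955 tested genes of a transcription factor family, 3 fell by more. Relative to Olig2, Nkx2-2 measured 0.700, 0.742 and 0.766 per kb in DMSO and 0.234, 0.235 and 0.227 in ZJU-37, a difference in log2 ratio of -1.67 (exact permutation p = 0.1, the smallest possible).

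Nkx6-2 (chromosome 1, 211922389 to 211923929, minus strand), a homeobox protein found in myelinating cells, was the factor whose call turned on how the spread was modelled. It measured 34.7, 24.7 and 16.0 CPM in the DMSO libraries and 13.7, 15.5 and 6.70 CPM in the ZJU-37 libraries. The lowest DMSO and the highest ZJU-37 library almost met, and replicate 3 was the lowest of both groups. The log2 fold change was -1.07 with a standard error of 0.39 (95% interval -2.0 to -0.14, adjusted p = 0.126 in edgeR), from 25.1 ± 9.34 to 12 ± 4.65 CPM. With the replicate number entered as a block, the log2 fold change was -1.08 (standard error 0.14, adjusted p = 5.67e-04 in edgeR). That fit called 7 of the 9 factors, 2 higher and 5 lower, and 32.1% of all tested genes (16.2% higher and 15.9% lower). DESeq2 called the same numbers of factors, Nkx6-2 included (adjusted p = 0.0225), and 16.9% of the genes it tested (10.0% higher and 6.88% lower). The differences within replicate numbers 1, 2 and 3 were -1.34, -0.67 and -1.26 on the log2 scale.

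Myrf (chromosome 1, 226260558 to 226292480, minus strand), whose protein is cleaved from a membrane and then activates myelin genes, fell in every pair. It measured 884, 768 and 629 CPM in the DMSO libraries and 219, 294 and 195 CPM in the ZJU-37 libraries. The groups were far apart, although the DMSO libraries spread by more than those of Nkx2-2. The mean fell from 760 ± 127 to 236 ± 51.6 CPM, a log2 fold change of -1.69 with a standard error of 0.19 (adjusted p = 0.00208 in edgeR), which leaves 31.0% of the DMSO level (95% interval 22.6% to 42.6%). Per kb, the ratio of Myrf to Olig2 was 0.785, 0.726 and 0.657 in the DMSO libraries and 0.190, 0.321 and 0.212 in the ZJU-37 libraries. The difference of the mean log2 ratios was -1.62 (exact permutation p = 0.1, the smallest possible), so Myrf fell relative to the lineage factor Olig2 and not only relative to the library total.

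Tcf7l2 (chromosome 1, 276659542 to 276730514, plus strand), a partner of beta-catenin in WNT signalling, had the largest fall of the 9 factors. It measured 109, 89.0 and 78.5 CPM in the DMSO libraries and 22.3, 24.4 and 20.3 CPM in the ZJU-37 libraries. No value of either group came near the other group. The mean fell from 92.3 ± 15.7 to 22.3 ± 2.07 CPM, a log2 fold change of -2.05 with a standard error of 0.14 (adjusted p = 3.8e-04 in edgeR), which leaves 24.2% of the DMSO level (95% interval 19.2% to 30.5%). Among all 14670 tested genes 52 fell by more, 2 of them of a transcription factor family.

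Zeb2 (chromosome 3, 29862473 to 29996865, minus strand) fell by less than these factors. It measured 290, 263 and 234 CPM in the DMSO libraries and 157, 174 and 148 CPM in the ZJU-37 libraries, and the groups did not overlap. The mean fell from 262 ± 27.8 to 160 ± 13.2 CPM, a log2 fold change of -0.72 with a standard error of 0.10 (95% interval -0.96 to -0.48, adjusted p = 0.00431 in edgeR), and 60.8% of the DMSO level remained. Zeb2 is also expressed in microglia. The summed microglia markers were 1627, 2780 and 2276 CPM in the DMSO libraries and 1194.5, 2517 and 1944 CPM in the ZJU-37 libraries. They were lower with ZJU-37 within each replicate number, as Zeb2 was. Replicate 1 was lowest for these markers and highest for Zeb2 among the DMSO libraries, and replicate 2 was highest for both among the ZJU-37 libraries. Their part in the fall of Zeb2 was not tested.

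Myt1 (chromosome 3, 177310753 to 177341547, plus strand) rose by about as much as Olig1. It measured 125, 119 and 112 CPM in the DMSO libraries and 212, 161 and 168 CPM in the ZJU-37 libraries. The groups did not overlap, and ZJU-37 replicate 1 was the highest, as for Olig1. The mean rose from 119 ± 6.52 to 181 ± 27.5 CPM, a log2 fold change of 0.60 with a standard error of 0.11 (95% interval 0.33 to 0.87, adjusted p = 0.0142 in edgeR). Without DMSO replicate 2 or DMSO replicate 3 the adjusted p of Myt1 was 0.0580 or 0.0588 in edgeR, with log2 fold changes of 0.60 and 0.57. These fits did not pair libraries by replicate number. With all libraries and the replicate number entered as a block, the adjusted p of Myt1 was 1.2e-04 in edgeR. Per kb, the ratio of Myt1 to Myrf was 0.143, 0.156 and 0.180 in DMSO and 0.978, 0.555 and 0.874 in ZJU-37.

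Tcf4 (chromosome 18, 65155685 to 65507977, plus strand) measured 76.8, 67.3 and 72.3 CPM in the DMSO libraries and 78.1, 68.0 and 69.1 CPM in the ZJU-37 libraries. The groups overlapped (p = 1, exact permutation test), and the same replicate number was highest in both. The log2 fold change was -0.01 with a standard error of 0.08 (95% interval -0.20 to 0.19, adjusted p = 0.967 in edgeR). This is the narrowest interval among the 9 factors, and it bounds the change to between 87.0% and 114% of the DMSO level.

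**Figure D2:**
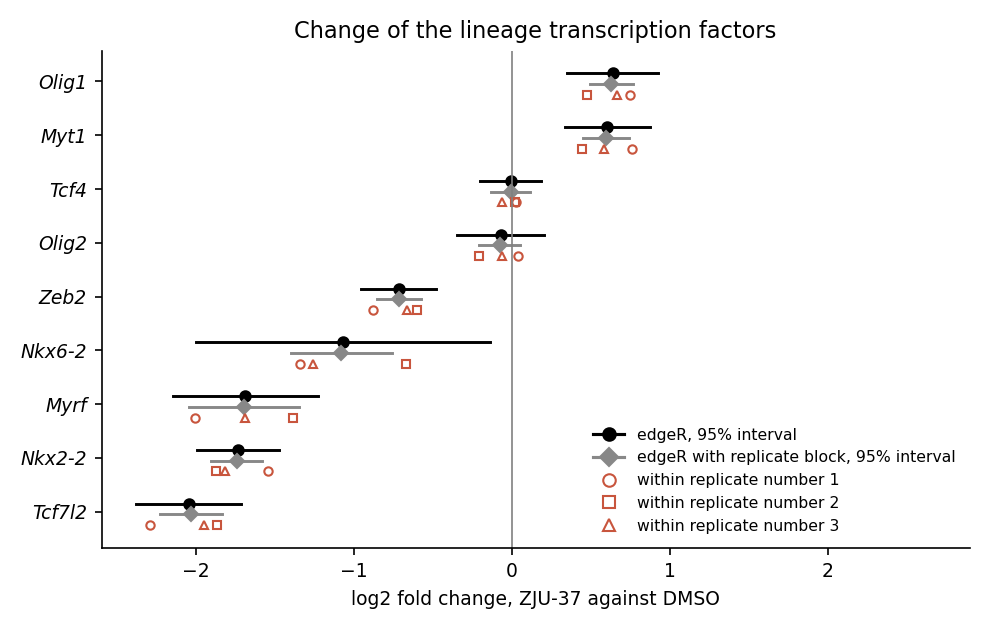
Log2 fold change of each factor, ZJU-37 against DMSO, with 95% intervals from edgeR (black circles) and from edgeR with the replicate block (grey diamonds), and the differences within each replicate number as open red symbols. The black interval of Nkx6-2 runs from -2.0 to -0.14 and is wider than all others, while those of Olig2 and Tcf4 include 0.

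Close relatives of several factors moved the other way. Of 12 paralogs, 8 were tested, and 3 of them were higher and 1 lower at an adjusted p under 0.05. Lef1, a TCF/LEF factor that binds the same DNA core as Tcf7l2, rose. It measured 3.58, 3.73 and 3.77 CPM in the DMSO libraries and 16.4, 16.9 and 19.5 CPM in the ZJU-37 libraries, a log2 fold change of 2.25 with a standard error of 0.12 (adjusted p = 2.7e-04 in edgeR). Per kb, the ratio of Lef1 to Tcf7l2 went from 0.0443, 0.0566 and 0.0650 in DMSO to 0.995, 0.938 and 1.3 in ZJU-37, so that 2 genes far apart in level became similar.

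Summed over Tcf7l2, Tcf7l1, Tcf7 and Lef1, the TCF/LEF level was 32.5 ± 4.13 CPM per kb in DMSO and 18.7 ± 0.367 in ZJU-37. Tcf7l2 made up 81.2% ± 3.43 of that sum in DMSO and 34.3% ± 3.41 in ZJU-37, and Lef1 4.47% ± 0.663 and 36.6% ± 3.75. Tcf7l1 and Tcf7 did not pass the test, with log2 fold changes of 0.17 and 0.56 (adjusted p = 0.410 and 0.332 in edgeR).

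Zeb1, the other ZEB repressor, measured 95.6, 85.6 and 92.4 CPM in the DMSO libraries and 187, 158 and 169 CPM in the ZJU-37 libraries. It rose from 91.2 ± 5.12 to 171 ± 14.8 CPM, a log2 fold change of 0.91 with a standard error of 0.08 (adjusted p = 7.73e-04 in edgeR). The ratio of Zeb1 to Zeb2 per kb was 0.422, 0.416 and 0.505 in DMSO and 1.52, 1.16 and 1.47 in ZJU-37, so on this scale the more abundant ZEB transcript changed from Zeb2 to Zeb1 in all 3 pairs. In ZJU-37 replicate 2 this order rests on the gene model lengths, as Zeb2 had 174 CPM and Zeb1 158 CPM there. The sum of both levels was 87.1 ± 6.97 CPM per kb in DMSO and 87.1 ± 3.79 in ZJU-37.

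St18, the MYT family member also called Myt3, went against Myt1. It measured 17.5, 14.6 and 9.87 CPM in the DMSO libraries and 5.51, 8.44 and 4.51 CPM in the ZJU-37 libraries, a log2 fold change of -1.18 with a standard error of 0.30 (adjusted p = 0.0440 in edgeR). With 1 library left out, the adjusted p of St18 was between 0.113 and 0.128 in 4 of 6 cases in edgeR (without DMSO replicate 1, DMSO replicate 2, ZJU-37 replicate 1 or ZJU-37 replicate 3). The ratio of Myt1 to St18 per kb was 7.47, 8.44 and 11.8 in DMSO and 40.0, 19.9 and 38.9 in ZJU-37. The other family member, Myt1l, did not pass (log2 fold change -0.25, adjusted p = 0.666 in edgeR).

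Among the E proteins, Tcf3 rose by a small amount, with a log2 fold change of 0.36 and a standard error of 0.06 (adjusted p = 0.00664 in edgeR). It measured 108, 111 and 102 CPM in the DMSO libraries and 138, 136 and 138 CPM in the ZJU-37 libraries. Tcf12 did not pass (0.11, adjusted p = 0.418 in edgeR), like Tcf4. Apart from the ratio of Myrf to Olig2, the ratios were chosen after the values had been seen. Each had the smallest p that the exact permutation test allows, 0.1. The differences of the mean log2 ratios were 4.29 for Lef1 to Tcf7l2, 1.62 for Zeb1 to Zeb2, 1.79 for Myt1 to St18 and 2.29 for Myt1 to Myrf. Each of these sets a gene that rose without overlap against a gene that fell without overlap. Their p was therefore fixed in advance and adds no support.

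**Figure D3:**
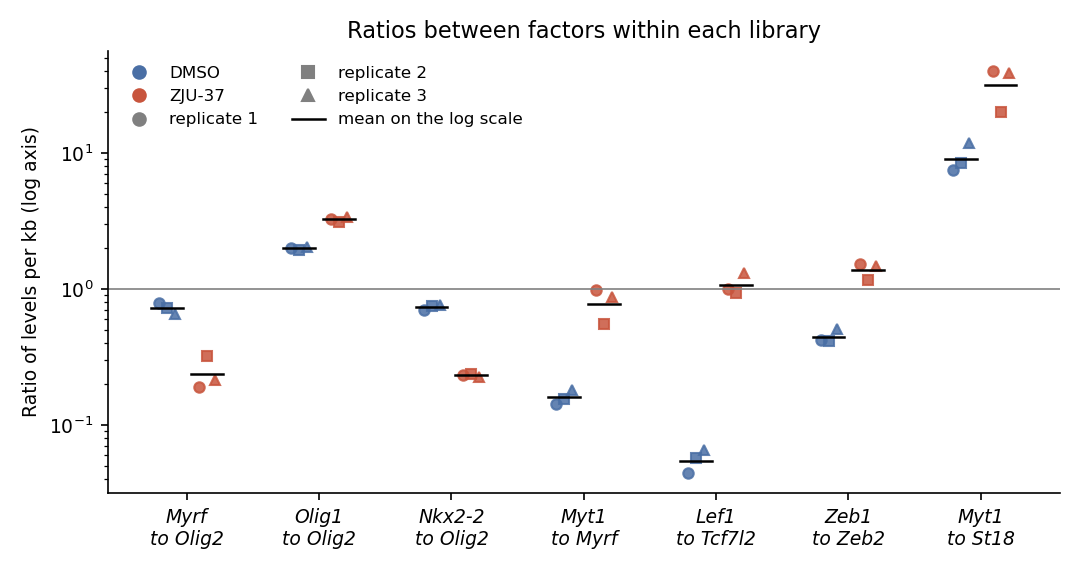
Ratios of levels per kb between factors within each library on a log axis, with DMSO in blue, ZJU-37 in red, replicate numbers as symbols and bars at the mean on the log scale. The groups are apart for all 7 ratios, and Zeb1 to Zeb2 crosses the line of equal levels, from 0.505 or less in DMSO to 1.16 or more in ZJU-37.

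The genes whose profile over the 6 libraries was nearest to that of a factor were sought among 13892 named genes, by the root mean square difference of centred log2 CPM. The nearest profiles to Olig1 included Myt1 (difference 0.0299), which was the closest, and Olig1 was the second closest to Myt1 after the deubiquitinase gene Usp37 (0.0211). For Nkx6-2 the nearest genes included Mob3b and the myelin basic protein gene Mbp, with differences of 0.0371 and 0.0404. Sirt2, a deacetylase gene of oligodendrocytes, was among the 3 nearest to both Myrf (0.114) and Tcf7l2 (0.119), behind Tns3 (0.0948) for Myrf and Cpm (0.0505) for Tcf7l2. Nkx2-2 was nearest to Elfn2 (0.0584), Zeb2 to Inppl1 (0.0346) and Olig2 to Nr2c2 (0.0347). All these profiles share the same 6 libraries, and the likeness is a description only.

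Other regulators of the lineage were divided. Of 20 tested genes in this list, 3 were higher and 3 lower at an adjusted p under 0.05, and the median log2 fold change was 0.02. Zfp488, a zinc finger partner of Olig2, fell from 52.9 ± 11.2 to 19.3 ± 3.50 CPM (log2 fold change -1.45, standard error 0.19, adjusted p = 0.00389 in edgeR), and Thra, a thyroid hormone receptor, fell from 320 ± 49.4 to 198 ± 27.1 CPM (-0.69, adjusted p = 0.0191). Nfib, a nuclear factor of glial development, rose from 34.0 ± 4.66 to 56.8 ± 7.87 CPM (0.74, adjusted p = 0.0139). St18, given above, and Nfia, which was named after its value was seen (0.52, adjusted p = 0.0425, all in edgeR), were called as well. The list had 3 called genes without DMSO replicate 2 or ZJU-37 replicate 3, and those no longer called with 1 library left out were St18, Thra and Nfia.

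Genes of the stages around these factors were counted in the same fit. Of 8 tested genes of committed precursors, the stage between OPC and oligodendrocyte, 7 fell and 0 rose, with a median log2 fold change of -2.04. Tnr, which encodes an extracellular matrix protein, fell from 611 to 54.6 CPM (-3.48, adjusted p = 1.32e-04 in edgeR), and the receptor gene Gpr17 from 357 to 33.1 CPM (-3.43, adjusted p = 3.2e-04). Enpp6 and Bcas1, which mark newly forming oligodendrocytes, had log2 fold changes of -2.34 and -2.18 (adjusted p = 0.00194 and 3.8e-04).

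Of 15 tested myelin genes, the known targets of Myrf among them, 2 fell and 0 rose, with a median of -0.93. They were Fa2h, which hydroxylates myelin lipids (-2.42, adjusted p = 0.00142), and Cnp, which encodes a myelin enzyme (-1.36, adjusted p = 0.00362, both in edgeR). The DMSO libraries differed widely in these genes, with sums of 22886, 16236 and 11347 CPM, against 8892, 10226 and 4871 CPM in the ZJU-37 libraries. With the replicate block 9 of them were lower (15.9% of all tested genes were), and DESeq2 called 8, all lower (6.88% of all).

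Of 7 tested OPC genes, 4 rose and 2 fell, with a median of 0.54. The growth factor receptor gene Pdgfra (log2 fold change 1.10, adjusted p = 0.0182) and the proteoglycan gene Cspg4 (1.04, adjusted p = 0.00396) rose, whereas C1ql1 (-1.45, adjusted p = 6.1e-04) and Vcan (-1.29, adjusted p = 0.00378) fell, all in edgeR. C1ql1 encodes a secreted C1q-like protein and Vcan a matrix proteoglycan. Pdgfra was not called without DMSO replicate 2 or DMSO replicate 3 (adjusted p = 0.0775 and 0.0693 in edgeR), with log2 fold changes of 1.03 and 1.06. Ptprz1, a phosphatase gene also counted among the 4 and named after its values were seen, lost its call in the same fits (adjusted p = 0.0897 and 0.0829 in edgeR) and without ZJU-37 replicate 3 (0.0706), so that 2 of the 4 were called without either DMSO library.

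Genes that respond to WNT, BMP and Notch signals, pathways in which Tcf7l2 and Zeb2 act, were counted as well. Of 7 tested WNT feedback targets, Lef1 and Nkd1 (0.80, adjusted p = 0.0321) rose and Rnf43 (-1.55, adjusted p = 0.0176) fell in edgeR, and the list median was 0.56. Nkd1 and Rnf43, both inhibitors of WNT signalling, stood at 4.83 and 1.67 CPM in DMSO and lost their call in 4 of the 6 fits that left out 1 library. The list then had between 1 and 3 called genes, with 1 of them, Lef1, without DMSO replicate 2 or DMSO replicate 3. Of 11 tested BMP and Notch response genes 0 were called in edgeR. At an unadjusted p under 0.05, for which no share of all genes was counted, 3 were lower. In DESeq2 3 were lower, where 6.88% of all tested genes were. With the replicate block 4 were lower, where 15.9% of all tested genes were. The inhibitor genes Id3 and Id2, which bind E proteins, had log2 fold changes of -0.84 and -0.19 (adjusted p = 0.0965 and 0.372 in edgeR).

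Markers of other cell types were examined in the same libraries. Of 8 tested astrocyte markers, Aldoc fell (-0.86, adjusted p = 0.00235 in edgeR), and the summed level was 1026 to 1655 CPM in DMSO and 904 to 1358 CPM in ZJU-37. None of 8 microglia markers, 8 neuron markers and 6 tested fibroblast and vascular markers passed in edgeR, where 0, 1 and 0 of them had an unadjusted p under 0.05, or in DESeq2. With the replicate block, which called 32.1% of all tested genes, 5, 2, 3 and 1 genes of the 4 lists were called, of which 1 astrocyte marker was higher and the others lower. The neuron list summed to 758 to 1002 CPM in DMSO and 665 to 904 CPM in ZJU-37, and the fibroblast and vascular list to 48.8 to 114 CPM and 28.1 to 79.4 CPM. The endothelial marker Cldn5 was at 0 in all libraries. The part of these cells in the changes of the 9 factors was not tested.

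**Figure D4:**
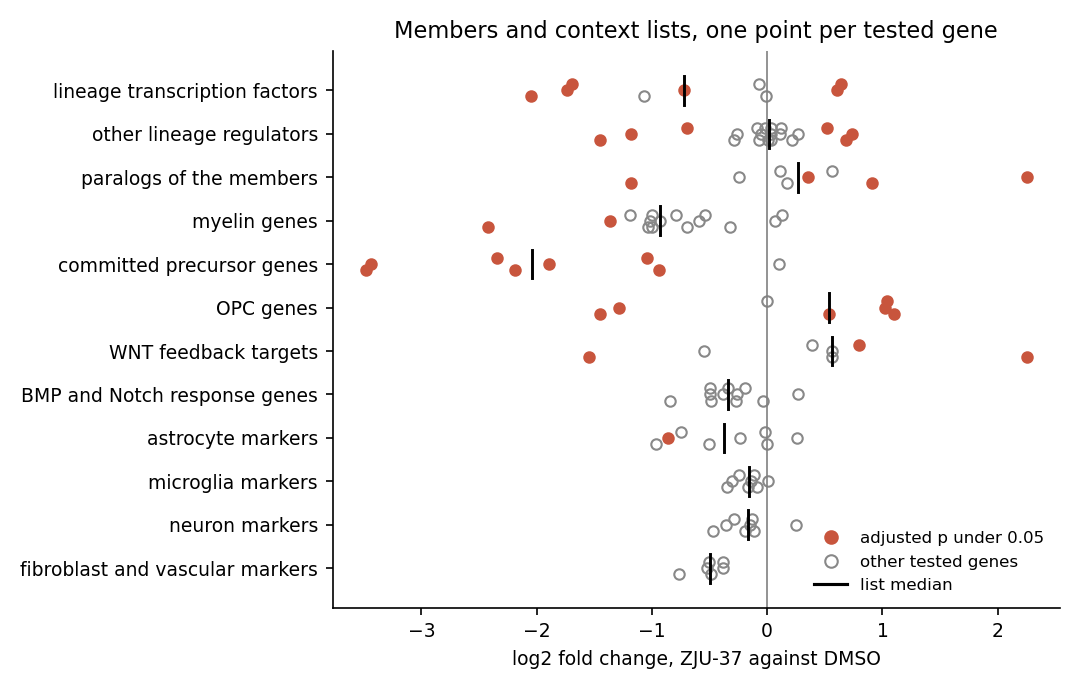
Log2 fold change, ZJU-37 against DMSO, of each tested gene of the 9 factors and of the 11 other lists, with genes at an adjusted p under 0.05 in filled red, other tested genes as open grey circles and list medians as black bars. Committed precursor genes have the lowest median, -2.04, while the 9 factors lie on both sides of 0 with a median of -0.72.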

How the data were processed

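Poly-A RNA of 6 libraries was sequenced, 3 per group. The authors' processing notes name HISAT2 2.0.5, StringTie 1.3.3b and featureCounts 1.5.0. The genome build is not given in the sources used here. The deposited values used here are raw counts per gene, neither normalized nor filtered, from 1 table of the series. Its 6 FPKM columns per sample, its group means and the authors' own fold changes and p-values were not used. Counts were not stated to use strand. The annotated spans of the 9 factors overlapped 0 other counted genes.

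Genes were filtered with filterByExpr, scaled by TMM (factors 0.981 to 1.04) and tested with edgeR 4.0.16 (glmQLFit, robust, glmQLFTest) on all 6 libraries in R 4.3.3, with Benjamini-Hochberg adjustment. The procedure was tested on simulated counts. Standard errors are the log2 fold change divided by the square root of its F statistic. Levels per kb divide CPM by the gene model length of the table. Alternatives were DESeq2 1.42.0, limma-voom (limma 3.58.1), other scalings, filters and thresholds, thinning, the replicate block and leaving out each library. Deviations from group means of libraries with the same replicate number in the labels correlated across genes with r = 0.39, 0.31 and 0.33 (other pairs -0.27 to -0.01), so the number was taken to pair libraries. Only the replicate block uses this pairing. The main fit and the fits that left out 1 library held treatment alone, so their p-values and standard errors ignore it.

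The factors and lists were chosen with earlier results of these data known. Of 121 entries in 11 lists, 117 were matched by name. Trf, Lhfpl3, Znrf3 and Pecam1 were not. All 9 factors are named, and of each list at most 4 genes: those with the largest change among genes with an adjusted p under 0.05 and a mean of at least 1 CPM or, where none passed, at most 2 by mean CPM. Paralogs and, for each factor, the 3 genes of nearest profile may be named too. Some genes that the rule or the lists cover are not reported here.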

Additional observations from a re-analysis of the deposited data

How the results depend on the processing

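Tcf7l2, Nkx2-2, Myrf and Zeb2 kept their direction and their call under all 14 settings of normalization, filter, test, pairing, depth and libraries. Leaving out 1 library in turn, 4 to 6 factors were called (0 to 2 higher, with 0 without DMSO replicate 2 or DMSO replicate 3, and 4 lower), and at an adjusted p under 0.01 the count of higher factors was 0. The share of all tested genes called was not counted for these fits or this threshold. A loss particular to the factors therefore cannot be told from a general loss of calls. The log2 fold changes close to 0 changed sign: that of Tcf4 was 0.024 with library size only and 0.025 after thinning to the smallest library, and ran from -0.056 to 0.059 with 1 library left out, and that of Olig2 ran from -0.17 to 0.016. The log2 ratio of Myrf to Olig2 differed by -1.85 to -1.47 with 1 library left out. Other regulators called ranged from 3 to 5 and WNT feedback targets from 1 to 3 in these fits. The causes of these changes were not tested.

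With the replicate block, Nkx6-2 was called (adjusted p = 5.67e-04, edgeR), and the counts of called genes were 9 for myelin, 4 for BMP and Notch response, 5 for astrocyte, 2 for microglia, 3 for neuron and 1 for fibroblast and vascular genes. The block changed the call of no other factor, and the ratio of Myrf to Olig2 within pairs differed by -1.62. With DESeq2 the counts were 8 for myelin and 3 for BMP and Notch response genes. Counting error is smallest for Olig1 and largest for Nkx6-2, the factor with the fewest counts.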
